A study of Mus musculus with 15 samples.

Results

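The Myc network was followed through 10 genes: the family members Myc, Mycl and Mycn, the long non-coding RNA Pvt1 that lies beside Myc, the shared partner Max, and Mxd3, Mxd4, Mxi1, Mnt and Mga, which also pair with Max. They were taken by gene symbol from the 55359 genes of the expression matrix, and all 10 were found once. RNA was sequenced in 15 mouse samples in 5 groups of 3: cultured 46LCNEC cells (46LCNEC_cell), tumors grown from them (46LCNEC_allo), cultured 57SCLC cells (57SCLC_cell), tumors grown from them (57SCLC_allo) and normal lung (Lung). The 46LCNEC line came from a large cell neuroendocrine carcinoma that arose after intratracheal delivery of a Cre adenovirus driven by the CMV promoter, and the 57SCLC line from a small cell carcinoma that arose after delivery of Cre under the keratin K5 promoter. Both tumors formed in QKO mice, a background with floxed Rb1 and Trp53 and null Rbl1 among its engineered tumor suppressor alleles, and the allografts grew under the skin of immunocompetent syngeneic QKO mice, so hosts and tumors share this background. 46LCNEC cells grew attached, at passage 17 from 3 dishes, and 57SCLC cells grew in suspension, at passage 11 from 3 flasks. Lung came from littermates of the graft recipients. Each tumor type is thus represented by 1 line from 1 tumor, so tumor type, line, promoter of Cre and mode of growth cannot be told apart, and p-values for the cultured cells measure the spread between dishes or flasks of 1 line.

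Myc, Mycl and Mycn encode transcription factors that bind DNA as pairs with Max, at E-box sequences of the letters CACGTG, and drive genes of ribosome production, metabolism and cell division. Mxd3, Mxd4, Mxi1, Mnt and Mga compete for Max and recruit repressor complexes to the same sites, so the network is often described as a balance between both sets of proteins. Amplification of one family member, most often at the exclusion of the others, is a well known event in small cell lung carcinoma, and MYCL was first isolated from such tumors.

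The values below are normalized counts, which are reads per gene divided by the size factor of the sample, and per-kilobase levels divide them by the exon length of the gene. The shallowest sample held 9480244 reads assigned to genes and the deepest 44876572 (median 26502525). Among the cultured replicates 57SCLC flask C stood apart in a chi-square comparison of their reads. The statistic divided by its degrees of freedom was 2.80 for flasks A and B, 144 for A and C and 127 for B and C. Pairs of 46LCNEC tumors also differed widely, at 121, 92.6 and 133. Their log2 correlations were 0.919 to 0.948, lower than the 0.984 of both pairs with flask C. Without flask C, 6, 2 and 5 members were called in the comparisons of 57SCLC_cell with 46LCNEC_cell, 57SCLC_allo and Lung, against 6, 2 and 6 with all samples. Of all genes, with all samples, 23.9% were higher and 22.2% lower in 57SCLC_cell than in 46LCNEC_cell. The shares were 14.4% higher and 2.29% lower in 57SCLC_allo than in 57SCLC_cell. For 57SCLC_cell against Lung they were 21.1% and 32.7%. Of 7 neuroendocrine markers, including Chga and Syp, the sum was 88267 to 95373 in 57SCLC_cell and 44984 to 55302 in 57SCLC_allo, but 19.2 to 44.1 in 46LCNEC_cell, 23.2 to 66.4 in 46LCNEC_allo and 237 to 262 in Lung, so the 46LCNEC samples go against the neuroendocrine part of their label in the RNA of these 7 genes. By protein staining, the authors report NCAM, SSTR2 and CGRP in the cell lines. In the subcutaneous tumors they report chromogranin A, CGRP and TTF-1. The genes of NCAM and SSTR2 are not among the 7. Gene-level counts of Rb1, Rbl1 and Trp53 do not resolve the deleted exons: Trp53, for example, averaged 997 to 1465 in all 5 groups, and they check no label.

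The proximal promoters of 5 members are shown first, because they differ in the sequence that the network itself binds. Each is the 250 bases before the canonical transcription start in the GRCm39 genome with the GENCODE release 39 annotation, read 5′ to 3′ on the strand of the gene, with exact matches to CACGTG (the E-box, the same on both strands) or to TTTGGCGC (an E2F-type site, searched on both strands) in capitals. Myc and Mycl, at chr15:61856977-61857226 and chr4:122889158-122889407 on the plus strand, hold neither. Mycn, at chr12:12991916-12992165 on the minus strand, holds TTTGGCGC 2 times, from 105 to 98 and from 90 to 83 bases before the start. Max, at chr12:77009001-77009250, and Mxd4, at chr5:34345241-34345490, both on the minus strand, each hold 1 CACGTG, from 25 to 20 and from 33 to 28 bases before the start.
Myc: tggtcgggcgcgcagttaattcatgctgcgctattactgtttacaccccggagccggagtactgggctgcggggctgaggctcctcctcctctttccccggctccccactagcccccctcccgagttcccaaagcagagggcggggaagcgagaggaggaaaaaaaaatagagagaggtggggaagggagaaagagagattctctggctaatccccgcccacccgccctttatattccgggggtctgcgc
Mycl: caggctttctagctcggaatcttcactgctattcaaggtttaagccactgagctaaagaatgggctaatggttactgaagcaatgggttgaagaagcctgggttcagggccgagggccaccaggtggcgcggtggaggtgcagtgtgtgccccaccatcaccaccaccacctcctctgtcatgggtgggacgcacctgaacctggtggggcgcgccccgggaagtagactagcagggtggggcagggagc
Mycn: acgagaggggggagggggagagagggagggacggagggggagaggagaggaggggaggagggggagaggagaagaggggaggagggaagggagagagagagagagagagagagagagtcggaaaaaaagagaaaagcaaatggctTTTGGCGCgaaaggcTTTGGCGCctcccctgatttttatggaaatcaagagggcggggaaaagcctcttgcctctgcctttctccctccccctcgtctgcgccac
Max: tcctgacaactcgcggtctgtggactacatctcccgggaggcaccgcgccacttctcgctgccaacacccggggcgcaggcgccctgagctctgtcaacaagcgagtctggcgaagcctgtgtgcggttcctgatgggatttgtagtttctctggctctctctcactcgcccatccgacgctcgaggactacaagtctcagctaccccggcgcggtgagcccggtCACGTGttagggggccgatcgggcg
Mxd4: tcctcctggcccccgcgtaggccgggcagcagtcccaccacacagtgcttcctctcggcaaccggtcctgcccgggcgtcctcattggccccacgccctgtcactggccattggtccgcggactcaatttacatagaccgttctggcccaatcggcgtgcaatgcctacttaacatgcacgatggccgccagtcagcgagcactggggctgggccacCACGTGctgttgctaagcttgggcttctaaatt
Mxd3 also holds a CACGTG, from 223 to 218 bases before its start. CACGTG was thus found in 3 of the 10 member promoters (30%) and in 1363 of 21757 protein-coding promoters of the same length (6.26%), and TTTGGCGC in 1 of 10 members and in 0.487% of all. A match describes these letters only, and no binding was measured here.

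The family members did not share their samples. Myc (chr15:61857227-61862223), the broadly expressed member that follows growth signals, was at 6695, 6281 and 6801 normalized counts in 46LCNEC_cell A, B and C and at 2980, 2959 and 2883 in 46LCNEC_allo 312, 319 and 321. It was at 93.8, 109.8 and 65.7 in 57SCLC_cell and at 452, 358 and 478 in 57SCLC_allo 275, 316 and 317, against 434, 485 and 410 in Lung CT3, CT4 and CT5. The order of the groups was 57SCLC_cell, 57SCLC_allo, Lung, 46LCNEC_allo and 46LCNEC_cell, and among neighbors in that order 57SCLC_allo and Lung overlapped.

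Mycl (chr4:122889408-122896282), which is expressed in neural and neuroendocrine tissue, had the opposite pattern. It was at 91752, 89595 and 79997 normalized counts in 57SCLC_cell and at 130278, 132708 and 128282 in 57SCLC_allo, which placed it 5th to 8th of all genes in each of these 6 samples and gave it 0.342 to 0.574% of all normalized counts. In 46LCNEC_cell it was at 334, 252 and 233, in 46LCNEC_allo at 53.0, 34.7 and 260.0, and in Lung at 508, 723 and 489. All 6 57SCLC samples lay far above the 9 others, and tumor 321 carried about as much Mycl as the cultured 46LCNEC cells while the other 46LCNEC tumors carried less.

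Mycn (chr12:12986076-12992915), the member of neural progenitors, was the least expressed. No read was counted in the 3 46LCNEC_cell samples, which allows up to 2.81 normalized counts (3 reads; such floors cover counting error only). It was at 18.5, 33.7 and 16.6 in 46LCNEC_allo, at 4.91, 5.43 and 7.82 in 57SCLC_cell and at 81.4, 65.1 and 96.5 in 57SCLC_allo. Lung held the most, at 163, 169 and 293, and no pair of neighboring groups overlapped. Pvt1, whose promoter region and RNA have been tied to Myc regulation and stability, followed Myc: 3391, 4695 and 4234 in 46LCNEC_cell, 2367, 1732 and 2061 in 46LCNEC_allo, 211, 195 and 202 in 57SCLC_cell, 285, 304 and 354 in 57SCLC_allo, and 304, 344 and 377 in Lung.

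**Figure D1:**
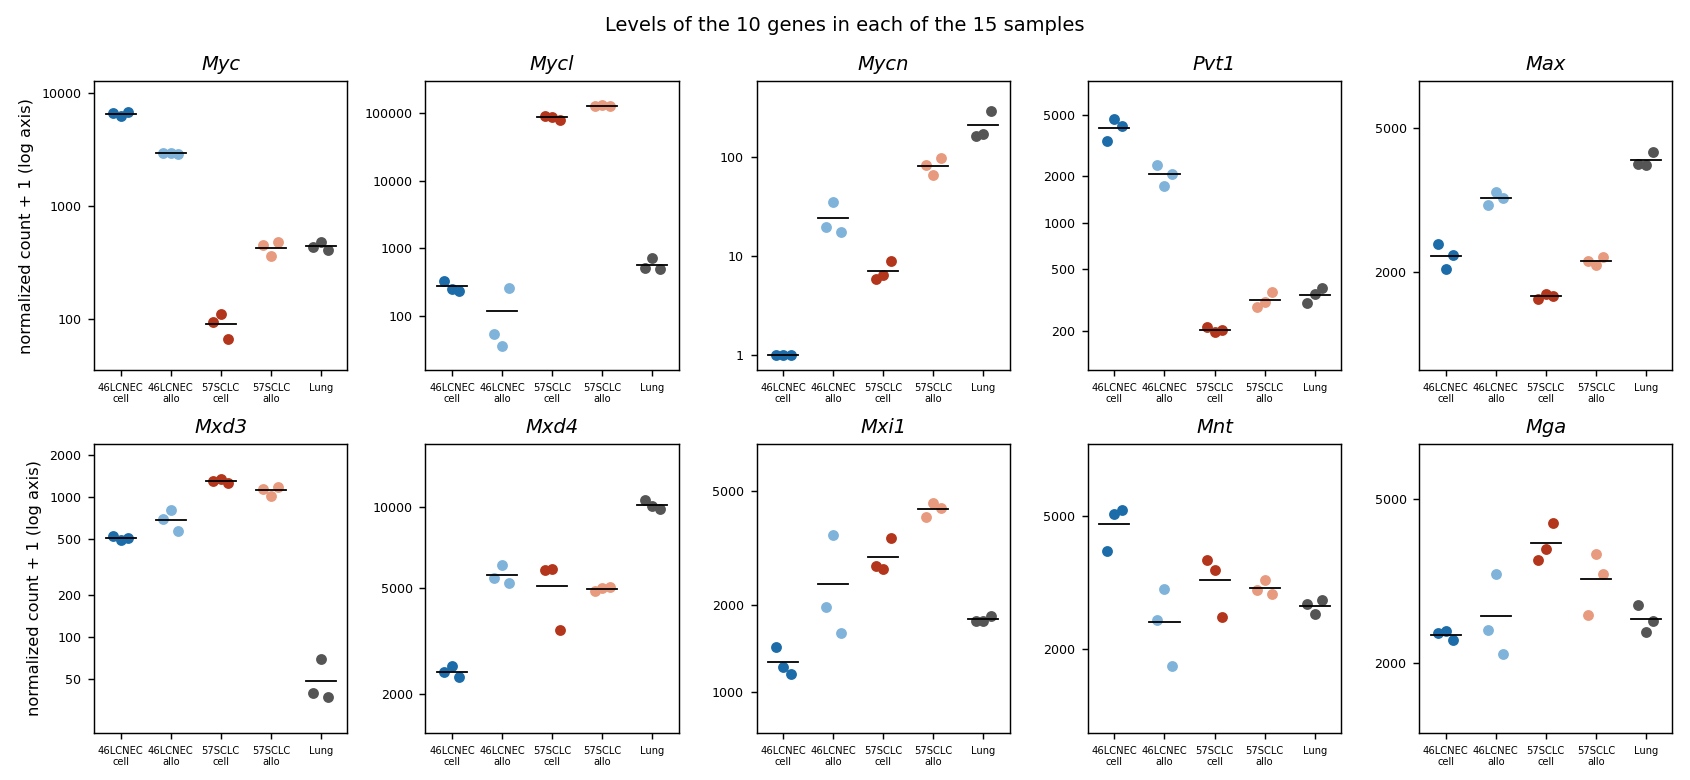
Normalized counts plus 1 on a log axis for the 10 genes, with 1 point per sample, a bar at the group mean and 1 color per group. Myc and Pvt1 are highest in 46LCNEC samples, Mycl lies between 79997 and 132708 in the 6 57SCLC samples, Mycn and Mxd4 are highest in Lung, and Mxd3 is lowest in Lung.

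The first comparison asked how the cultured lines differ. Genes were called where limma gave an adjusted p no higher than 0.01 and levels differed 2-fold or more, both on the log2(normalized count + 1) scale that the fold changes below use. In 57SCLC_cell against 46LCNEC_cell, Mycl was 321-fold higher (log2 fold change 8.33 ± 0.14 SE, limma adjusted p = 4.15e-09), Myc was 74.2-fold lower (log2 fold change -6.21 ± 0.17) and Pvt1 was 20.0-fold lower (log2 fold change -4.32 ± 0.12). Mxd3 (2.54-fold, 1.35 ± 0.08), Mxi1 (2.31-fold) and Mxd4 (1.02 ± 0.19) were also higher. The Mxd4 call sits at the threshold: flask C was at 3489 and flasks A and B at 5825 and 5864, and the call was lost on upper-quartile scaling (0.99) or when 46LCNEC_cell A or C or 57SCLC_cell A or B was left out. Max (-0.37) and Mga (0.73) passed the adjusted p but not the fold, and Mnt (-0.57) neither. Of 9 members tested, 4 rose and 2 fell, where over all genes 23.9% rose and 22.2% fell. Mycn was below the filter of 10 normalized counts in 3 samples and was not tested.

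In the tumors the same contrast was asked without culture. In 57SCLC_allo against 46LCNEC_allo, Mycl was 1640-fold higher (log2 fold change 10.68 ± 0.68, limma adjusted p = 3.89e-05; 11.54 without 46LCNEC tumor 321, which held more Mycl than the other 2 tumors), Myc 6.89-fold lower (-2.78 ± 0.13) and Pvt1 6.49-fold lower (-2.70 ± 0.16). Mycn was 3.54-fold higher (log2 fold change 1.83 ± 0.37, limma adjusted p = 0.00571), a call that was lost in 5 of the 6 fits that left out 1 tumor, at 1.64 to 1.97. None of the 6 other members was called; Max (-0.57) and Mxd3 (0.70) passed the adjusted p with a smaller fold, and Mxi1 (0.95, limma adjusted p = 0.0234) was called without 46LCNEC tumor 319, at 1.27, or on library size scaling, at 1.212. Of 10 members 2 rose and 2 fell, against 16.1% and 14.2% of all genes tested. Scaling by library size moved the median of all genes in this comparison from 0.015 to 0.275 and the calls from 2821 higher and 2491 lower to 3527 and 1969, and the directions of Myc, Mycl, Mycn and Pvt1 held.

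Culture and tumor were then compared within each line, and Myc moved in opposite directions. In 46LCNEC_allo it was 2.24-fold lower than in the cells (log2 fold change -1.16 ± 0.09, limma adjusted p = 6.68e-05), and in 57SCLC_allo it was 4.81-fold higher (2.27 ± 0.22, limma adjusted p = 7.89e-05). The interaction term, which is the change in 57SCLC minus the change in 46LCNEC, was 3.43 ± 0.24 for Myc (limma adjusted p = 6.47e-07). Mycn was higher in both kinds of tumor than in their cells: in 46LCNEC at least 8.16-fold, with the cells set to the floor, and in 57SCLC 11.7-fold (3.54 ± 0.29). Every cell sample was under 10 normalized counts, so Mycn passed the filter only through the tumors and could only come out higher. Mycl did not pass in 57SCLC (0.58 ± 0.17, adjusted p = 0.0268), nor in 46LCNEC (-1.77 ± 0.68, adjusted p = 0.0625), where it was called as lower without tumor 321, at -2.62, or with all 15 samples in the fit.

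Among the partners, Mxd4, a repressor of quiescent and differentiating cells, rose 2.29-fold in 46LCNEC tumors (1.19 ± 0.10) and was at 0.01 ± 0.19 in 57SCLC (adjusted p = 0.973, negative with edgeR, DESeq2 and both other scalings), with an interaction term of -1.18 ± 0.23 (limma adjusted p = 0.00208). Pvt1 (-0.9982 ± 0.16) and Mnt (-0.99 ± 0.21) in 46LCNEC tumors passed the adjusted p and fell just short of 2-fold; both were called on library size and on upper-quartile scaling. The interaction term of Pvt1 was 1.62 ± 0.21 (limma adjusted p = 9.8e-05). In 46LCNEC 2 of 10 members rose and 1 fell, against 14.4% and 8.45% of all genes, in 57SCLC 2 rose and 0 fell, against 14.4% and 2.29%, and by the interaction term 2 were higher and 1 lower, against 10.8% and 6.78%. The members that rose in each line include Mycn, which could only come out higher.

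Allografts hold host cells, and fibroblast, leukocyte and endothelial markers moved with the same contrast. The summed level of 5 fibroblast markers was 29197 to 32077 in 46LCNEC_cell and 283706 to 589942 in 46LCNEC_allo, and 21.7 to 26.7 in 57SCLC_cell (Lum at 0) and 23711 to 35969 in 57SCLC_allo. For 5 leukocyte markers it was 327 to 383 and 7231 to 12231 in 46LCNEC, and 230 to 256 and 2525 to 4230 in 57SCLC, with Cd3e and Ms4a1 at 0 in both cultures and Ms4a1 at 0 in the tumors and in Lung too. For 4 endothelial markers it was 370 to 454 and 4821 to 8323, and 63.3 to 88.6 and 2415 to 3356. The fibroblast sum of cultured 46LCNEC cells, which were grown outside the graft hosts, lay above that of Lung (16578 to 19370). Whether stromal cells of the donor tumor remained in the culture was not tested. Col1a1 made up most of the 46LCNEC_cell sum, with a mean of 20963 against 2826 in Lung. Of the 5 markers, 1 was called higher and 3 lower in 46LCNEC_cell than in Lung (20.6% and 35.0% of all genes), with a median of -2.775. All 5 rose in 46LCNEC_allo over the cells (14.4% of all genes), with a median of 4.541. In this line the sum, carried by Col1a1, therefore does not single out host cells. The part of host cells in the changes of Myc, Mycn and Mxd4 was not tested. In such bulk samples fewer cells of a type and less RNA per cell cannot be told apart. Of 10 proliferation genes, 4 fell in 46LCNEC tumors (Ccnb1, Cdk1, Pcna and Mcm2, the last lost without 46LCNEC_cell A or C), where 8.45% of all genes fell, and limma, edgeR and DESeq2 called 0 in 57SCLC tumors, with 9 at an unadjusted p under 0.05.

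**Figure D2:**
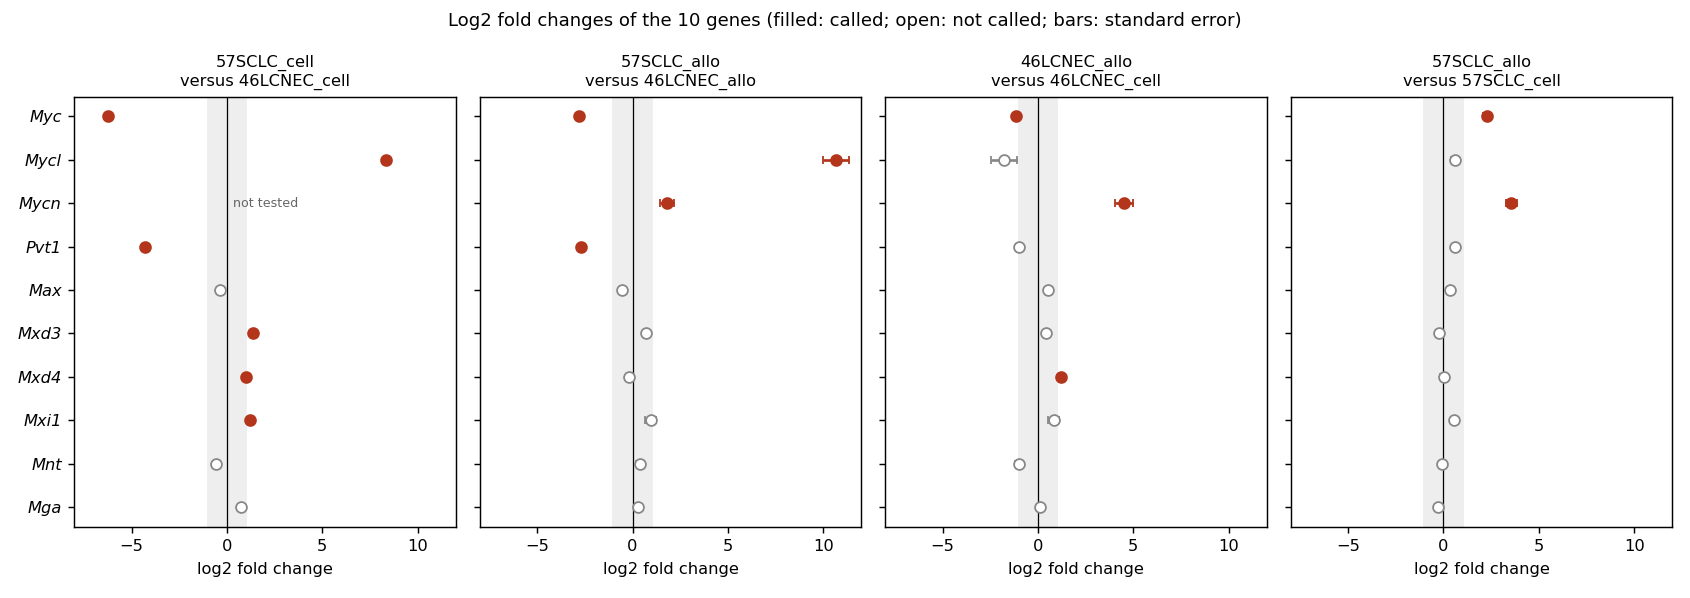
Log2 fold changes of the 10 genes in the comparisons between lines and between tumors and cells, with standard errors; filled points were called and the gray band spans 2-fold either way. Mycl and Myc lie on opposite sides between the lines, and Myc lies left of the band in 46LCNEC tumors (-1.16) and right of it in 57SCLC tumors (2.27).

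Each group was also set against Lung, and these 4 comparisons share the same 3 Lung samples. Myc was higher in 46LCNEC_cell (log2 fold change 3.90 ± 0.08) and 46LCNEC_allo (2.73 ± 0.10), lower in 57SCLC_cell (-2.32 ± 0.21) and at -0.05 ± 0.14 in 57SCLC_allo (limma adjusted p = 0.761), where edgeR, DESeq2 and library size scaling gave values above 0. Mycl was higher in 57SCLC_cell (7.27 ± 0.15) and 57SCLC_allo (7.85 ± 0.15). In 46LCNEC_cell Mycl was lower (-1.06 ± 0.19), a call lost with edgeR (-0.94), with DESeq2 (-0.98), on upper-quartile scaling, with all 15 samples in the fit and without 46LCNEC_cell C or Lung CT4, and in 46LCNEC_allo it was at -2.83 ± 0.72 (adjusted p = 0.0129), called without tumor 321 at -3.69, with DESeq2 and with all 15 samples in the fit. Mycn was lower in all 4: in Lung at least 74.0-fold above 46LCNEC_cell, and at -4.86, -3.14 and -1.31 in 57SCLC_cell, 46LCNEC_allo and 57SCLC_allo, the last lost without tumor 316 or Lung CT5. In all 46LCNEC_cell and 57SCLC_cell samples Mycn was under 10 normalized counts. For these cells it passed the filter only through Lung and could only come out lower. Lung is a mixed tissue, with summed lung epithelium markers at 286483 to 384309 against at most 552 in the tumor samples, endothelial markers at 73280 to 83138 and leukocyte markers at 8147 to 9120; which cells carried its Mycn was not tested.

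Of the partners, Mxd3, a repressor expressed in dividing progenitors, was the one raised in all 4 groups over Lung, by 3.43 ± 0.24 in 46LCNEC_cell, 4.78 ± 0.24 in 57SCLC_cell, 3.86 ± 0.30 in 46LCNEC_allo and 4.56 ± 0.25 in 57SCLC_allo. Its values were 38.9, 68.8 and 36.3 in Lung and ran from 489 to 1332 in the other 12 samples. All 10 proliferation genes, such as Mki67, rose over Lung in the same 4 comparisons, where 20.6, 21.1, 13.4 and 18.9% of all genes rose. Mxd4, at 10646, 10130 and 9792 in Lung, was lower in 46LCNEC_cell (-2.07 ± 0.07); it was called lower at -1.05 in 57SCLC_cell and -1.04 in 57SCLC_allo, both lost with edgeR, with DESeq2 and under both other scalings, and it was at -0.87 and not called in 46LCNEC_allo. Without flask C the 57SCLC_cell value was -0.80.

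Max, at 3977, 3943 and 4303 in Lung, was below it in every other sample, at 1673 to 3324, and passed 2-fold only in 57SCLC_cell (-1.25 ± 0.07). Mxi1 was 2.41-fold higher in 57SCLC_allo (1.27 ± 0.07) and not called in the other 3. Members rose and fell in these numbers of 10, beside the share of all genes: 3 (20.6%) and 3 (35.0%) in 46LCNEC_cell, 2 (21.1%) and 4 (32.7%) in 57SCLC_cell, 3 (13.4%) and 1 (22.1%) in 46LCNEC_allo, and 3 (18.9%) and 2 (26.9%) in 57SCLC_allo. The members that fell in 46LCNEC_cell and in 57SCLC_cell include Mycn, which could only come out lower there. Mnt, a broadly expressed antagonist, and Mga, a large protein that also anchors the polycomb complex PRC1.6, were called in 0 of the 8 comparisons by limma, edgeR or DESeq2, with 4 and 3 of 8 at an unadjusted p under 0.05. Their adjusted p, without regard to fold, was at most 0.01 in some of them: for Mnt in 46LCNEC_allo against 46LCNEC_cell (0.00593) and 46LCNEC_cell against Lung (0.000101), and for Mga in 57SCLC_cell against 46LCNEC_cell (0.000123) and Lung (0.000752). Mga ran from 2104 to 4386 and Mnt from 1780 to 5202 over the 15 samples. Some members share exon sequence with a gene on the other strand (Mxd3 with Prelid1 over 876 bases, Mxd4 with Gm42846 over 514, Mxi1 with Gm30541 over 349 and Pvt1 with Macroh2a3 over 308), and the strand setting of the counting is not given in the sources used here, so reads of those stretches cannot be assigned with certainty.

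Per kilobase of exon, family members can be set beside each other. Myc made up 97.4 ± 0.485% (SD, n = 3) of the summed Myc, Mycl and Mycn level in 46LCNEC_cell and 97.1 ± 2.52% in 46LCNEC_allo. Mycl made up 99.8% in 57SCLC_cell and 99.4% in 57SCLC_allo, where Myc was at 0.158% and 0.506%. Lung was mixed, with 47.3 ± 2.73% Myc, 39.4 ± 4.72% Mycl and 13.3 ± 5.21% Mycn. In each tumor line 1 family member thus held nearly all of the family level, with tumor 321, at 94.2% Myc, as the lowest sample.

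The summed family level per kb was 343 ± 37.5 in Lung, 1110 ± 11.1 in 46LCNEC_allo, 2480 ± 103 in 46LCNEC_cell, 20720 ± 1490 in 57SCLC_cell and 31150 ± 501 in 57SCLC_allo. The 5 antagonists together moved much less, between a mean of 1682 in 46LCNEC_cell and 2353 in 57SCLC_allo, with 2115 in Lung. The ratio of family to antagonists was therefore 0.163 ± 0.0213 in Lung, 0.620 ± 0.131 in 46LCNEC_allo, 1.48 ± 0.138 in 46LCNEC_cell, 8.95 ± 0.168 in 57SCLC_cell and 13.2 ± 0.402 in 57SCLC_allo, with no overlap between groups. Max is needed by both sides: the family level was 0.364 times that of Max in Lung, 1.498 and 4.84 times in 46LCNEC_allo and 46LCNEC_cell, and 52.3 and 62.6 times in 57SCLC_cell and 57SCLC_allo. These are RNA ratios, and protein was not measured. The antagonist sum covers the members only. It leaves out Mxd1, which was at 313 to 337 normalized counts in 46LCNEC_cell and 1654 to 1803 in Lung. With the longest transcript as length the ratios to Max became 0.264, 1.10, 3.54, 35.1 and 42.1 in the same order.

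**Figure D3:**
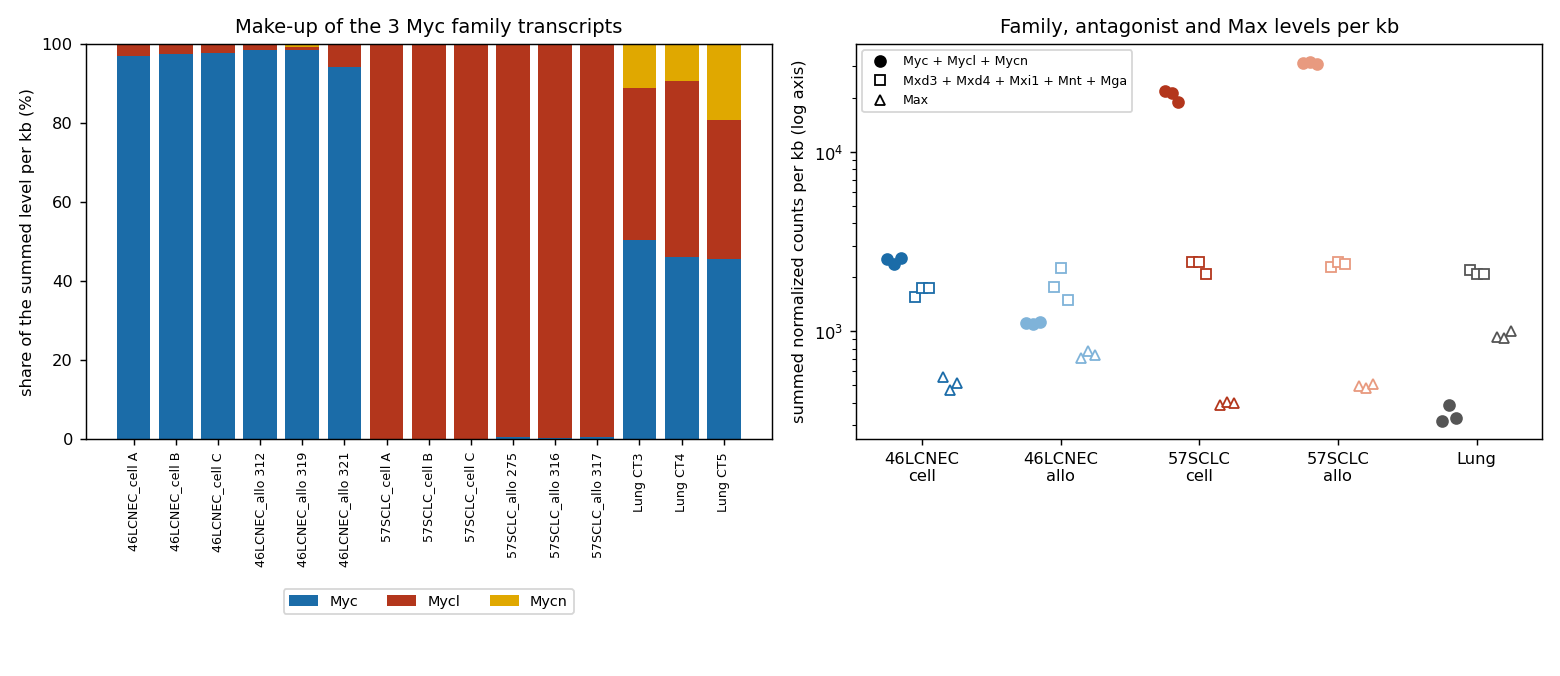
Left, the share of Myc, Mycl and Mycn in their summed level per kb of exon for each sample, in percent. Right, the summed family level, the summed level of the 5 antagonists and the level of Max per kb on a log axis, with 1 point per sample; the family sum lies below both other quantities in Lung and above both in 46LCNEC_cell and in all 57SCLC samples.

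The mix of antagonists differed between groups as well. Mxd4 made up 55.6 ± 1.35% of the antagonist sum in Lung and 16.7 ± 1.23% in 46LCNEC_cell. Mxd3 made up 0.826 ± 0.326% in Lung and 20.3 ± 1.36% in 57SCLC_cell. Mnt made up 52.7% in 46LCNEC_cell.

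Mycl did not stand alone on chromosome 4. Of the genes within 500 kb of it, 17 of 18 tested rose in 57SCLC_cell against 46LCNEC_cell and 0 fell. Of all genes, 23.9% rose and 22.2% fell. The median log2 fold change was 4.02, where the median of all genes was 0.000. Gm12875, Gm12876, 9530002B09Rik, Gm12923, Gm12877, Hpcal4, Heyl and ENSMUSG00000118657 averaged under 10 normalized counts in 46LCNEC_cell. They passed the filter only through 57SCLC_cell and could only come out higher, so the count and the median are a description. In the tumors 14 of 16 rose (16.1% of all genes), with a median of 5.31, and Heyl, a Notch target, fell (-2.31, where 14.2% of all genes fell). Some of the tumor genes likewise averaged under 10 in 46LCNEC_allo, such as Gm12923, Hpcal4 and Bmp8b. Cap1, an actin-binding protein gene that lies before Mycl, was at 135120, 134559 and 142336 in 57SCLC_cell and at 11005, 10646 and 11202 in 46LCNEC_cell (log2 fold change 3.65, limma adjusted p = 1.94e-08). Trit1, a tRNA-modifying enzyme gene that lies 14.05 kb after it, was at 27897, 28914 and 46691 against 1174, 1316 and 1262 (4.75). Macf1, a cytoskeletal linker gene 347 kb after it, was at 113170, 125087 and 146416 against 7860, 8388 and 8431 (3.96). In each of these genes the lowest 57SCLC sample was above the highest of all other samples, Lung included.

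The other called genes of this stretch in the cells were Gm12877 (4.84), Gm12875, Gm12876, 9530002B09Rik, Ppt1 (3.83), Mfsd2a (3.22), 4933421A08Rik (3.08), Gm12923 (6.01), Bmp8b (6.98), Ppie (3.92), Hpcal4 (6.13), Heyl (3.12), Pabpc4 (3.81) and the pseudogene ENSMUSG00000118657 (4.08). Gm12876, a pseudogene with no read in 46LCNEC_cell, was at least 198-fold higher, Gm12875 at least 14-fold and 9530002B09Rik at least 9.44-fold. Bmp8a was at 0.90 and not called, and Gm12901 was tested in the tumors, where it rose (3.33). Against Lung, 16 of 18 rose in 57SCLC_cell (21.1% of all genes), and Hpcal4 (-1.78) and Heyl (-6.29) fell (32.7% of all genes). Here too some, such as Gm12875, Gm12876, 9530002B09Rik and Gm12923, passed the filter only through 57SCLC_cell.

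A wider window, chosen after the values were seen, did not locate the ends of the raised stretch. Before Mycl, no gene was tested between Rlf at -1817 kb and Gm12877 at -390.7 kb. After it, none was tested between Rragc at 914.9 kb and Gm2164 at 1526 kb. From 500 to 1000 kb after Mycl, 8 of 9 tested genes rose in both line comparisons, where 23.9% and 16.1% of all genes did. Among them were Akirin1 (5.81), Rragc (4.32) and Mycbp (4.22), which encodes a Myc-binding protein. The pseudogene Gm12922 did not rise (-0.45). Mycbp, 1700121C08Rik and 4933427I04Rik averaged under 10 normalized counts in 46LCNEC_cell. From 1000 to 2000 kb after, 2 of 15 rose and 4 fell in the cells, with a median of -0.49. From 500 to 2000 kb before, 1 of 3 rose and 1 fell. Mycl and the 28 tested genes from 500 kb before to 1000 kb after it held 2.68 to 2.78% of all normalized counts in 57SCLC_cell and 2.95 to 3.45% in 57SCLC_allo, 0.118 to 0.119% in 46LCNEC_cell, 0.104 to 0.115% in 46LCNEC_allo and 0.165 to 0.178% in Lung. DNA copy number was not measured, and its part was not tested.

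The other family loci held fewer tested genes. Around Myc the tested genes within 500 kb were the long non-coding RNAs Pvt1 and D030024E09Rik. D030024E09Rik was also lower in 57SCLC, at -4.28 in the cells and -5.33 in the tumors, where 22.2% and 14.2% of all genes fell. It averaged 0.93 normalized counts in 57SCLC_cell and 0 in 57SCLC_allo. It thus passed the filter only through 46LCNEC and could only come out lower, so its direction, that of Myc, is a description. In 46LCNEC_allo it averaged 60.3 with an SD of 68.6. Against Lung, D030024E09Rik was lower in 46LCNEC_cell (-2.53), where Myc was higher (3.90). Around Mycn they were Ddx1 and Nbas, which are often amplified with MYCN in human tumors, and neither was called between the lines (-0.39 and -0.05 for Ddx1, -0.88 and -0.84 for Nbas, in cells and tumors).

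Genes downstream of the network were counted by lists. Of 22 ribosome biogenesis genes commonly listed as Myc-induced, 10 were lower and 0 higher in 57SCLC_cell than in 46LCNEC_cell, where 22.2% and 23.9% of all genes were, with a list median of -0.95 against 0.000 for all genes; on library size scaling the numbers were 6 and 1, and without flask C 10 and 0. Mybbp1a (-1.82), Nop56 (-1.41), Pes1 (-1.48) and Ppan (-1.49) led. Nop56, a box C/D snoRNP core protein gene, was at 6447, 6817 and 7831 in 46LCNEC_cell and at 2553, 2618 and 2718 in 57SCLC_cell.

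In 46LCNEC_allo against 46LCNEC_cell 14 of the 22 fell and 0 rose, against 8.45% and 14.4% of all genes, with a median of -1.10, led by Nop56 (-1.76), Mybbp1a (-1.54), Gnl3 (-2.03) and Polr1b (-1.34). Nop56 was at 2087, 2063 and 2061 in these tumors, below all 57SCLC_cell samples. In 57SCLC_allo against 57SCLC_cell limma, edgeR and DESeq2 called 0 in either direction (8 of 22 at an unadjusted p under 0.05, median -0.11). Between the tumors these tools called 0 as well (9 of 22 at an unadjusted p under 0.05, median 0.061). In that comparison the gene of smallest adjusted p was Bop1 (-0.64). By the interaction term 12 of 22 were called higher and 0 lower, where 10.8% and 6.78% of all genes were. The direction was that of a smaller or reversed line difference in tumors (median 1.03, against 0.101 for all genes). The drop in 46LCNEC tumors came with the rise in fibroblast, leukocyte and endothelial markers given above, and the part of host cells was not tested.

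**Figure D4:**
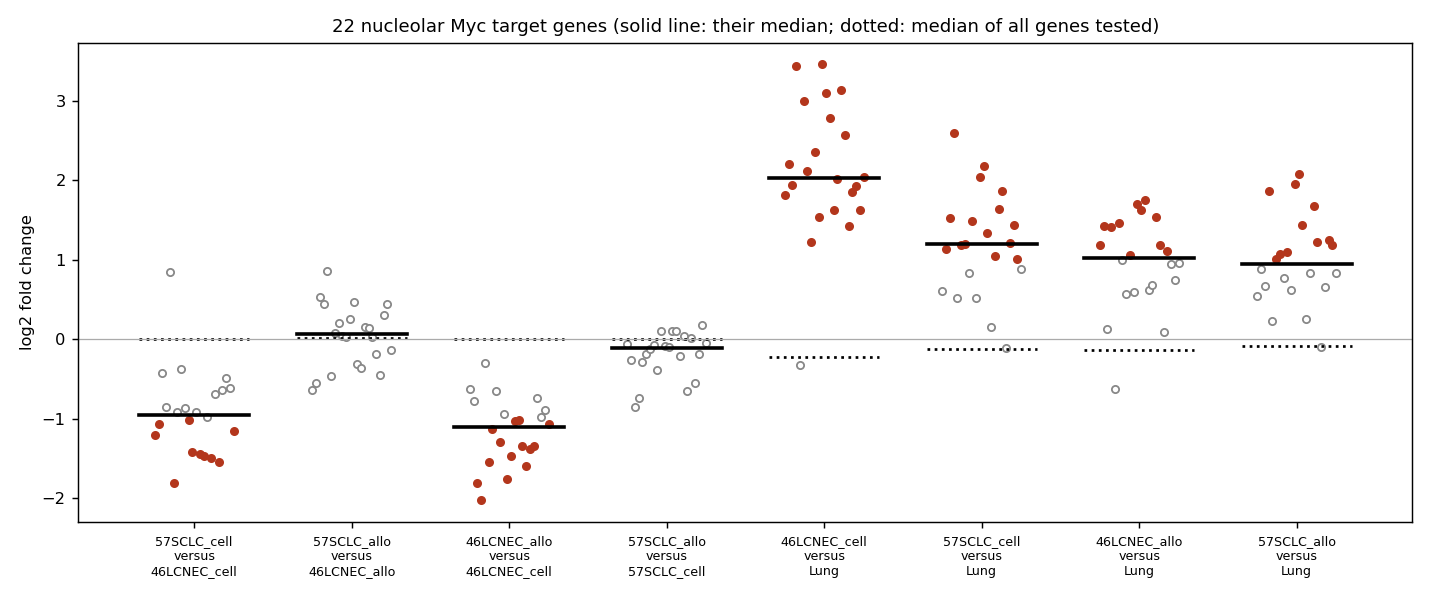
Log2 fold changes of the 22 nucleolar Myc target genes in the 8 comparisons; filled points were called, solid lines are the list medians and dotted lines the medians of all genes tested. The list lies below 0 in the cell comparison and in 46LCNEC tumors against their cells, around 0 in the other tumor comparisons and above 0 against Lung.

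Against Lung 21 of the 22 rose in 46LCNEC_cell (20.6% of all genes), 15 in 57SCLC_cell (21.1%), 11 in 46LCNEC_allo (13.4%) and 11 in 57SCLC_allo (18.9%). In the same order 0 fell, where 35.0, 32.7, 22.1 and 26.9% of all genes fell. The list medians were 2.03, 1.19, 1.03 and 0.94, against -0.226, -0.120, -0.137 and -0.087 for all genes.

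Of 16 metabolic genes tested, from 17 listed (Slc7a5 was listed at 0 in every sample), 4 fell in 57SCLC_cell against 46LCNEC_cell and 0 rose (median -0.06), near the 22.2% of all genes that fell: the glycolysis genes Hk2 (-5.18), Ldha (-2.12) and Pkm (-2.02), and Phb (-1.12). Flask C differed here, with Hk2 at 317 against 28.9 and 18.1 in flasks A and B and Ldha at 11893 against 3015 and 3140. Without it Hk2 was at -6.42 and Ldha at -2.77, and the Ldha call was lost when any other of the 6 samples was left out. Between the tumors Tfrc, the transferrin receptor gene, rose (1.91), as 1 of 16 tested where 16.1% of all genes rose. In 46LCNEC tumors against cells Tfrc (-1.87), Shmt1 (-1.37) and Odc1 (-1.002) fell, where 8.45% of all genes fell, and Odc1 was lost without 46LCNEC_cell C, tumor 319 or tumor 321. In 57SCLC tumors Shmt1 fell (-1.48) while Pkm (1.19) and Hk2 (4.43) rose. Both of these rises were lost when any 1 of the tumors 275, 316 and 317 was left out, and that of Hk2 also without flask A or B, while without flask C it was 5.67.

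Among 10 cell cycle targets, E2f2 (4.07) and Tert (1.58) rose and Mcm4 (-1.19) and Ccnd2 fell in 57SCLC_cell, 2 each way, close to the 23.9% and 22.2% of all genes. Ccnd2, which encodes cyclin D2, had no read in the 3 flasks of 57SCLC and stood at 251, 193 and 182 in 46LCNEC_cell, at least 125-fold higher. It thus passed the filter only through 46LCNEC_cell and could only come out lower in 57SCLC_cell. It was at 1092, 607 and 866 in 57SCLC_allo. Between the tumors E2f2 (3.29) and Cks2 (1.202) rose. Of 8 genes commonly listed as repressed by Myc, 3 rose and 3 fell in 57SCLC_cell, against the same 23.9% and 22.2%, among them the CDK inhibitor genes Cdkn1c (5.59), Cdkn1a (1.62), Cdkn1b (1.05, lost without 46LCNEC_cell C or 57SCLC_cell A) and Cdkn2b (-3.63). Between the tumors Cdkn2b (-2.91) fell and Ndrg2 (2.28) rose, the latter a call lost without tumor 321, 275, 316 or 317.

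Genes of the proteins that work with the network mostly stayed within 2-fold between the lines. Of 11 Sin3 and NCoR corepressor genes and 12 coactivator genes, limma, edgeR and DESeq2 called 0 in either line comparison, while 9 and 6 were at an unadjusted p under 0.05 in the cells and 4 and 5 in the tumors, with Sap130 (-0.81, adjusted p = 9e-06) and Kat2a (-0.95, adjusted p = 1.12e-05) the smallest p in the cells. Of 11 tested of 12 genes of Myc protein turnover (Fbxw7 was listed at 0 in every sample) limma and edgeR called 0 between the lines, with 8 at an unadjusted p under 0.05 in the cells and 4 in the tumors, and DESeq2 called 0 in the cells and 1 in the tumors. In addition Usp36 (-1.16) and Cip2a (-1.27) fell in 46LCNEC tumors, as did the coactivator gene Actl6a (-1.16). Of 13 PRC1.6 subunits, the complex that holds Mga, Pcgf6 (1.24), Tfdp1 (1.24) and Rybp (1.08) rose in 57SCLC_cell, near the 23.9% of all genes, and Pcgf6 (1.85) and Tfdp1 (1.04) in 57SCLC_allo, near the 16.1% of all genes. Rybp was lost without 46LCNEC_cell A or flask C, and Tfdp1 in the tumors without 319 or 316.

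Of 5 genes of the extended network, 2 rose in 57SCLC_cell (23.9% of all genes) and 1 in 57SCLC_allo (16.1%). Mlxipl, the glucose-responsive factor ChREBP that pairs with Mlx, was at 1382, 1451 and 1471 in 57SCLC_cell and at 6.57, 4.42 and 5.38 in 46LCNEC_cell (7.81 ± 0.18, limma adjusted p = 1.18e-08). In the tumors it was at 1218, 1200 and 1155 against 3.97, 5.26 and 3.32 (7.86 ± 0.26). Every 46LCNEC sample was under 10 normalized counts, so Mlxipl passed the filter only through 57SCLC and could only come out higher. It is part of both counts above. Mxd1, a further Max partner, was higher in 57SCLC_cell (1.95 ± 0.14) and rose in 46LCNEC tumors over their cells (1.16 ± 0.14).

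The genes whose pattern over the 15 samples was most like each family member were sought among 19616 genes by the Pearson correlation of log2 values, as a description, since the points share 5 groups. For Myc they were Gnl1 (0.990), Gm41724 (0.990) and Metrn (0.986). For Mycl they were Trim67 (0.996), Hcn3 (0.994) and Vil1 (0.993). For Mycn they were Bicral (0.985), Gpr4 (0.982) and Srgn (0.981). Over the same samples Myc correlated with Pvt1 at 0.965 and with Mycl at -0.780, and Mycn with Mxd4 at 0.861.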

How the data were processed

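The deposited matrix holds signal values: the authors aligned poly-A selected paired-end reads to GRCm39, counted them per gene with featureCounts and GENCODE release 27, and divided each sample by its DESeq2 size factor. Read counts were recovered from the step between values. Because the values are not raw counts, the design set limma 3.58.1 (R 4.3.3) on log2(normalized count + 1) as the main test. It used the 6 samples compared and genes with at least 10 normalized counts in 3 of them, with Benjamini-Hochberg adjustment over all genes. The interaction term used 12 samples. edgeR 4.0.16 and DESeq2 1.42.0 on recovered reads, library size and upper-quartile scaling, pseudocounts of 0.1 and 5, no filter, an adjusted p of 0.05, a test against 2-fold, all 15 samples, each sample left out and the letters of the cell samples as a block were alternatives. The test was checked on simulated data. Annotation was GENCODE release 39, which holds 98.9% of identifiers.

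The members and lists were chosen with earlier results of these data known, so no pattern is independent support for another. All 10 members were named, with up to 4 called genes of smallest adjusted p per list and comparison, or the gene of smallest adjusted p where none was called, tested genes within 500 kb of Myc, Mycl and Mycn, and the 3 most alike genes of each. Nop56 and flask C values of Hk2 and Ldha were detailed after the values were seen. Python 3.11.15, pandas 2.3.3 and matplotlib 3.10.9 were used for the rest. The floor was 3 reads.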

Additional observations from a re-analysis of the deposited data

Results flagged for a closer look

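For 3 members the difference between the lines was not the same in tumors as in cells, by a test of the interaction term itself over 12 samples. The term was 3.43 for Myc, whose level fell in 46LCNEC tumors and rose in 57SCLC tumors, and 1.62 for Pvt1, both higher, and -1.18 for Mxd4, which rose in 46LCNEC tumors while its value in 57SCLC tumors against cells was 0.01 and not called. Fibroblast, leukocyte and endothelial markers rose in both kinds of tumor, and the part of host cells was not tested.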

How the results depend on the processing

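Of 1463 values for members under alternatives, 1381 kept direction and side of the threshold, 37 lost and 19 gained a call, and 26 changed sign. The number of members called in 46LCNEC tumors against cells was 3, but 5 on library size or upper-quartile scaling and 1 when tested against 2-fold, and 3 to 5 with a sample left out (5 without tumor 321). Of 16375 genes tested there, 2355 rose and 1383 fell in the main fit. The numbers were 2217 and 1524 on library size scaling, 2145 and 1752 on upper-quartile scaling, and 1099 and 315 against 2-fold. In 57SCLC tumors against Lung 5 members were called, and 3 when tested against 2-fold. Of 18517 genes tested there, 3508 rose and 4973 fell in the main fit, and 2305 and 3479 against 2-fold. With a sample left out the counts of members were 5 to 6 (57SCLC against 46LCNEC cells, 46LCNEC_cell and 57SCLC_cell against Lung), 3 to 5 (tumors of both lines), 2 (57SCLC tumors against cells), 4 to 5 (tumors against Lung) and 3 to 4 (interaction). The shares of all genes called in the main fits stand with each comparison above. Tests against 2-fold also lowered the calls over all genes from 5312 to 2861 (tumors of both lines), 3738 to 1414 (46LCNEC tumors against cells), 2842 to 1700 (57SCLC tumors against cells) and 6412 to 3451 (46LCNEC_allo against Lung), and without 46LCNEC_cell C the 3738 became 2428. Nucleolar genes lower were 8 to 12 (57SCLC against 46LCNEC cells) and 11 to 16 (46LCNEC tumors against cells) with a sample left out, and 5 and 3 against 2-fold. Causes were not tested.

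The letters A, B and C do not pair the cell samples (correlations of same-letter deviations 0.0916, -0.0837 and -0.00619), and as a replicate block they left 6 members called, with 4041 genes higher and 3756 lower.

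The values that changed sign were not called. For 57SCLC tumors against cells, Mxd4 became -0.0281 with edgeR, -0.0343 with DESeq2, -0.0140 on library size and -0.1135 on upper-quartile scaling, and ran from -0.2385 to 0.1360 with a sample left out, as Mnt did from -0.2262 to 0.0554. Mxd4 between the tumors became 0.0948 on library size scaling. Against Lung, Mga became 0.0026 (edgeR) and 0.0752 (upper quartile) in 46LCNEC_cell and -0.0538 (library size) in 46LCNEC_allo, Pvt1 became 0.0852 (library size) and Myc 0.0339 (edgeR), 0.0076 (DESeq2) and 0.1547 (library size) in 57SCLC_allo. With a sample left out the ranges were -0.1332 to 0.0742 for Myc in 57SCLC_allo, and in 46LCNEC_allo -0.1808 to 0.1429 for Mga, -0.3708 to 0.0101 for Mnt and -0.0039 to 0.5593 for Mxi1. Mga in 46LCNEC tumors against cells ran from -0.0568 to 0.2670. The interaction term of Mycn was 0.5202 with a pseudocount of 5 and -4.0443 with 0.1, so its direction changed with the pseudocount, and that of Mxi1 ran from -0.4980 to 0.0652.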
